A study of Mus musculus with 64 samples.

Results

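The genes described here are 3 adrenergic receptors and 4 enzymes that make or break down cyclic AMP in the mouse heart: the alpha-1 receptors Adra1a and Adra1b, the beta-1 receptor Adrb1, the adenylyl cyclases Adcy5 and Adcy6, and the phosphodiesterases Pde3a and Pde4d. They were chosen by name, with earlier results of these data known. All 7 were found by Ensembl gene ID among the 48795 gene rows of the count table. RNA was sequenced from biventricular heart tissue of male C57BL/6 mice. CEK mice lacked E4BP4 in cardiomyocytes, and CON mice were their littermate controls. E4BP4 is a repressor that binds DNA elements called D-boxes and is encoded by Nfil3. Hearts were taken at 8 zeitgeber times (ZT, hours after lights on), every 3 h from ZT0 to ZT21, with 4 biological replicates of each genotype at each time. This gave 16 groups and 64 libraries, 32 of each genotype. The labels name neither the promoter that drives the deletion nor the alleles that controls carry nor the age of the mice. Other cells of the heart keep Nfil3 in this model.

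Noradrenaline and adrenaline reach the heart from sympathetic nerves and the adrenal gland and act on cardiomyocytes through beta and alpha-1 receptors. The beta-1 receptor works through the stimulatory G protein Gs, which switches on adenylyl cyclase. The cyclic AMP this makes activates protein kinase A, which raises heart rate, contraction and relaxation. Phosphodiesterases break cyclic AMP down and confine it to parts of the cell. Alpha-1 receptors couple instead to Gq, phospholipase C and protein kinase C, and are known for their roles in growth and survival of cardiomyocytes. Type 5 and type 6 are the main adenylyl cyclases of the cardiomyocyte, and PDE3A and PDE4D are 2 of its main cyclic AMP phosphodiesterases.

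Libraries held 7.71 to 45.6 M counts on genes (median 26.7 M), and the smallest was replicate 3 of CON at ZT18. Nfil3, the deleted gene, was lower in every CEK heart than in any CON heart of the same time, with an average log2 difference of -3.00 ± 0.067. The 12 ventricular cardiomyocyte markers were all detected in every library. On the first principal component 3 libraries stood apart, namely replicate 4 of CEK at ZT0, replicate 1 of CEK at ZT18 and replicate 3 of CON at ZT18. In CPM, that is counts per M counts of the library after TMM scaling, they held the 3 highest Pde4d values of all 64 hearts (39.9, 34.5 and 32.1). They also held the 3 lowest Adrb1 values (17.4, 19.03 and 19.4 CPM). In the other 61 hearts Pde4d ran from 15.1 to 27.5 CPM and Adrb1 from 19.7 to 30.8 CPM. The first 2 of the 3 libraries also held the 2 lowest Adcy6 values, 53.5 and 61.4 CPM, against 108 to 307 CPM in those 61 hearts.

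The Adra1b and Adrb1 promoters are shown because these receptors had a 24-h rhythm and E4BP4 acts at D-boxes. The sequences are from RefSeq on GRCm38.p6 and run from 250 bases before to 50 bases after an annotated start, 5′ to 3′ on the gene's strand. RefSeq gives Adra1b on chromosome 11 a start that lies in chr11:43901188-43901487 (minus strand) and a second in chr11:43836440-43836739 (minus strand). The Adrb1 promoter is chr19:56721867-56722166 (plus strand), and its capitals mark the cyclic AMP response element half-site TGACG, whose first base lies at -90 from the start.
Adra1b promoter 1: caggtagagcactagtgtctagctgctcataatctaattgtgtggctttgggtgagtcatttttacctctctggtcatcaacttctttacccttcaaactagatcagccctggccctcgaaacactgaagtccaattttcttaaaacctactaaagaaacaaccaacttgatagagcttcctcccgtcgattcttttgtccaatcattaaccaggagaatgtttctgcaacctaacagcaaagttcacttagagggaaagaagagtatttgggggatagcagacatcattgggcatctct
Adra1b promoter 2: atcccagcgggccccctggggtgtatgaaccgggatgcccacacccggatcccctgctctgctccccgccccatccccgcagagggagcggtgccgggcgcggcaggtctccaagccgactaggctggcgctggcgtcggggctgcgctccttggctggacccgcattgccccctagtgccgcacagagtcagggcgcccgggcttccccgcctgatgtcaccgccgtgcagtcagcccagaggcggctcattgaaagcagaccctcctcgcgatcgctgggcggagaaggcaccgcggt
Adrb1 promoter: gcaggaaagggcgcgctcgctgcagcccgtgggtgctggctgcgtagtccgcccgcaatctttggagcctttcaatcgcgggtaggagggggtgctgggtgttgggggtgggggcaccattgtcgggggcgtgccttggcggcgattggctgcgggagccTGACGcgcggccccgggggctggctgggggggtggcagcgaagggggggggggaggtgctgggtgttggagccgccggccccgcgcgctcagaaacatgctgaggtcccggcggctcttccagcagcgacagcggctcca
The first Adra1b promoter had 42.3% G and C, the second 71.3% and the Adrb1 promoter 72.3%. RefSeq promoters matched 4 of the 7 genes, 5 promoters in all, since Adcy5 and Pde4d had 1 each. On both strands, none of the 5 held the D-box spellings TTATGTAA or TTACGTAA, the E-box CACGTG, the full response element TGACGTCA or the receptor half-site AGGTCA. Of 32851 promoters of the same length, 0.938% held TTATGTAA, 0.119% TTACGTAA, 7.15% CACGTG, 1.79% TGACGTCA and 16.3% AGGTCA. The shorter TGACG, which is contained in TGACGTCA, was in 20.8% of them.

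Adcy6 had the highest level per length of exon and Adra1a the lowest. Over all 64 hearts the mean level in RPKM, which is CPM per kilobase of exon, was 26.8 ± 7.24 (SD) for Adcy6, 12.1 ± 1.61 for Adcy5, 11.7 ± 2.57 for Adra1b and 7.03 ± 0.861 for Adrb1. It was 6.93 ± 1.48 for Pde3a, 1.73 ± 0.355 for Pde4d and 1.25 ± 0.339 for Adra1a. Neighbours in this order whose means lay closer than their SDs were Adcy5 and Adra1b, and Adrb1 and Pde3a. Among the receptors, Adra1b took 59.9% ± 4.30 of the summed level per length of Adra1a, Adra1b and Adrb1 in CON and 56.4% ± 4.10 in CEK (SD, 32 hearts each). The Adra1b to Adrb1 ratio was 1.82 ± 0.307 in CON and 1.52 ± 0.238 in CEK, and the Adcy6 to Adcy5 ratio was 2.42 ± 0.468 and 2.00 ± 0.4998. The medians of the latter were 2.39 and 2.12, and its CEK mean holds the 2 libraries that stood apart with the lowest Adcy6 values. The Pde3a to Pde4d ratio was 4.11 ± 0.872 in CON and 4.10 ± 0.966 in CEK. From heart to heart Adrb1 and Adcy5 spread least, with coefficients of variation of 12.2% and 13.3% over the 64 hearts, and Adra1a and Adcy6 spread most, at 27.2% and 27.1%.

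**Figure D1:**
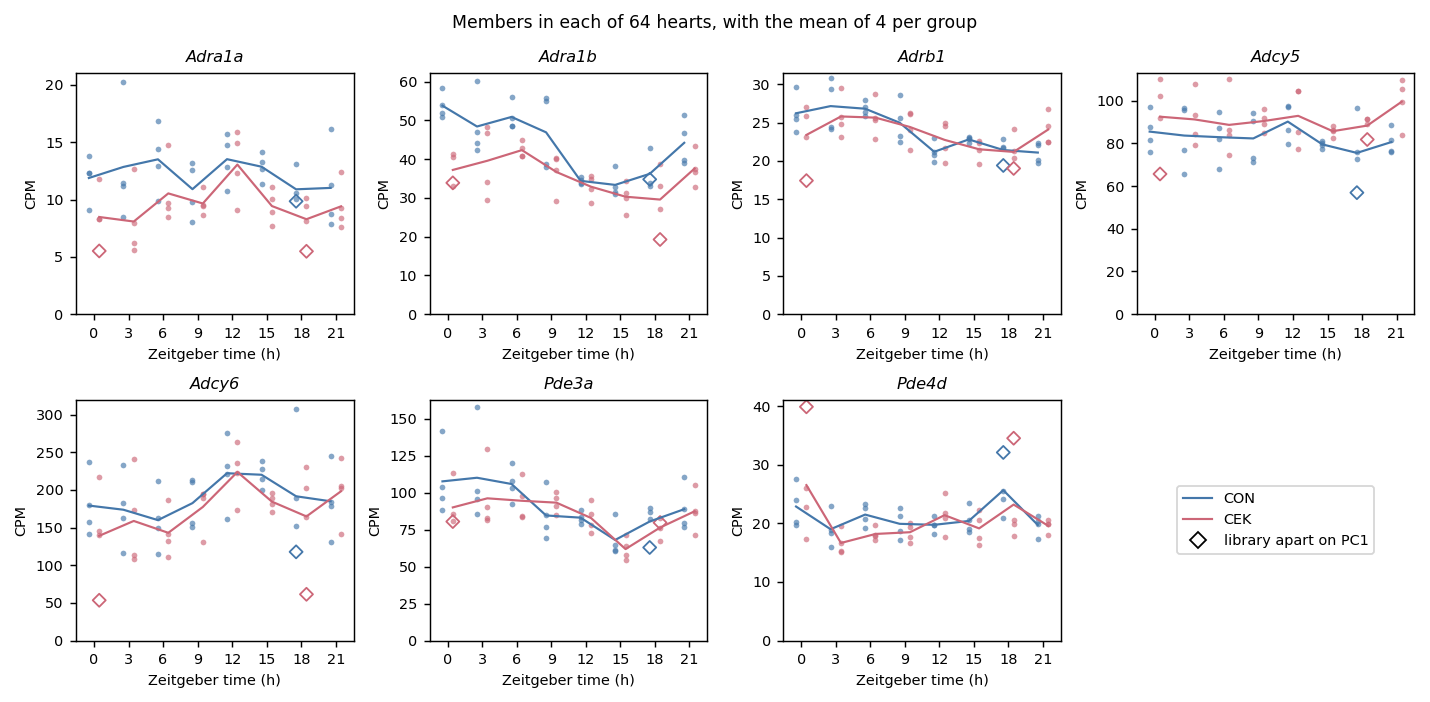
Level in CPM of each of the 7 genes (y axis, from 0) at 8 zeitgeber times in hours (x axis). Points are single hearts, lines join group means of 4, blue is CON, red is CEK, and diamonds mark the 3 libraries that stood apart. The CEK line for Adra1b lies below the CON line at all 8 times, while the Adrb1 lines cross.

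Both alpha-1 receptors were lower in CEK hearts and the cyclase Adcy5 was higher, while the other 4 genes did not pass the test. Averaged over the 8 times in 1 edgeR quasi-likelihood fit of all 64 libraries, 2 of the 7 genes were lower and 1 was higher at a Benjamini-Hochberg adjusted p below 0.05 over 16417 genes. Of all genes tested, 12% passed, 5.30% lower and 6.69% higher. Each of the 3 had 1 direction of difference at all 8 times, as did 11.7% of all genes tested. In bulk tissue, fewer cells of a type and less RNA per cell cannot be told apart.

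Adra1b, which encodes the alpha-1B receptor, fell by 17.1% in CEK. At ZT0 its values in replicates 1 to 4 were 51.9, 50.97, 58.3 and 53.9 CPM in CON and 33.1, 41.4, 40.5 and 33.9 CPM in CEK. At ZT3 they were 46.9, 44.3, 42.4 and 60.1 CPM in CON and 29.4, 33.99, 48.2 and 46.7 CPM in CEK. At ZT6 they were 48.5, 50.7, 55.9 and 48.5 CPM in CON and 42.9, 44.95, 40.7 and 40.7 CPM in CEK. The genotypes did not overlap at ZT0 or ZT6, and at ZT3 the 2 highest CEK hearts lay among the CON hearts. At ZT9 CON hearts had 55.1, 38.7, 55.8 and 38.1 CPM and CEK hearts 40.3, 29.2, 39.97 and 37.3 CPM. At ZT12 the values were 33.7, 35.4, 34.7 and 33.8 CPM in CON against 28.6, 32.3, 35.8 and 34.98 CPM in CEK. At ZT15 they were 31.6, 30.98, 32.8 and 38.1 CPM against 31.4, 25.7, 29.9 and 34.3 CPM. The groups overlapped at these 3 times and were closest at ZT12, where the means were 34.4 ± 0.815 and 32.9 ± 3.24 CPM (SD, n = 4). At ZT18 CON hearts had 33.9, 33.1, 34.8 and 42.97 CPM and CEK hearts 19.3, 33.2, 27.03 and 38.8 CPM, the first of which was a library that stood apart. At ZT21 they had 38.9, 39.9, 46.7 and 51.4 CPM and 32.8, 43.3, 36.8 and 37.4 CPM. The average log2 difference was -0.27 ± 0.052 (SE), with a 95% interval of -0.38 to -0.17 and an edgeR adjusted p of 0.000113. Without the 3 libraries that stood apart it was -0.25 with an edgeR adjusted p of 0.000157.

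At single times Adra1b came closest to the threshold at ZT0, with a log2 difference of -0.53 ± 0.15 and an edgeR adjusted p of 0.0508. Of all genes 1.24% passed at that time. The share was 0.700% at ZT3, 0.189% at ZT6, 0.341% at ZT9, 0.11% at ZT12 and at ZT15, 0.201% at ZT18 and 0.146% at ZT21. Adra1b passed at ZT0 with DESeq2 (adjusted p = 0.0235), with RLE scaling (0.0468) and a stricter low-count filter (0.0490), though not with no such filter, and in 26 of 64 fits that left out 1 library, and without the 3 libraries that stood apart its edgeR adjusted p was 0.0923. At ZT9 its log2 difference was -0.35 ± 0.15, with an unadjusted p of 0.0188 and an edgeR adjusted p of 0.505.

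Adra1a, which encodes the alpha-1A receptor and had the lowest level per length of the 7 genes, fell by 21.7% in CEK. Over 32 hearts of each genotype it ran from 7.90 to 20.3 CPM with a median of 12.3 in CON and from 5.49 to 15.9 CPM with a median of 9.27 in CEK. At ZT3, where the log2 difference was largest (-0.68 ± 0.24), CON hearts had 8.44, 20.3, 11.2 and 11.5 CPM and CEK hearts 6.20, 7.95, 12.6 and 5.57 CPM. At ZT15 they had 14.2, 11.3, 12.7 and 13.3 CPM and 11.1, 8.90, 10.04 and 7.71 CPM. The 2 genotypes overlapped at ZT3, where 1 CON heart stood far above the others, and did not overlap at ZT15. Both genotypes had their highest mean at ZT12, at 13.5 ± 2.21 CPM in CON and 13.1 ± 3.05 CPM in CEK. The average log2 difference was -0.35 ± 0.085, with a 95% interval of -0.52 to -0.18 and an edgeR adjusted p of 0.00254, and without the 3 libraries that stood apart it was -0.32 (edgeR adjusted p = 0.00477). At ZT3 its unadjusted p was 0.00655 and its edgeR adjusted p 0.279. At that time edgeR called it without CEK at ZT3 replicate 3 (-0.97, adjusted p = 0.0415) and with the ventricular cardiomyocyte marker score as a covariate (-0.79, adjusted p = 0.0202).

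Adrb1, which encodes the beta-1 receptor, did not pass the test of genotype. It ran from 19.4 to 30.8 CPM with a median of 23.1 in CON and from 17.4 to 29.6 CPM with a median of 23.6 in CEK. The average log2 difference was -0.018 ± 0.035 (edgeR adjusted p = 0.822), and its 95% interval of -0.089 to 0.053 was the narrowest of the 7 genes. Its estimate was lower in CEK at 6 times and higher at 2. At ZT21 CON hearts had 20.1, 22.1, 22.4 and 19.8 CPM and CEK hearts 22.5, 24.5, 26.8 and 22.5 CPM, so that every CEK heart lay above every CON heart. The log2 difference there was 0.19 ± 0.10, with an unadjusted p of 0.0593 and an edgeR adjusted p of 1.00.

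Adcy5 rose by 10.4% in CEK. It ran from 56.9 to 97.4 CPM with a median of 81.4 in CON and from 65.6 to 110.1 CPM with a median of 88.99 in CEK. At ZT15 CON hearts had 77.4, 80.2, 81.2 and 79.2 CPM and CEK hearts 82.5, 86.2, 88.1 and 85.9 CPM, with no overlap. At ZT21, where the difference was largest, they had 88.6, 81.5, 76.3 and 75.9 CPM and 83.9, 105, 99.2 and 109 CPM, and 1 CEK heart lay among the CON hearts. The average log2 difference was 0.14 ± 0.047, with a 95% interval of 0.048 to 0.24 and an edgeR adjusted p of 0.0359. The call was close to the threshold. It was lost in 9 of 64 fits that left out 1 library, where the log2 difference was 0.13 to 0.14 and the adjusted p 0.0512 to 0.0558. Those libraries were CEK at ZT3 replicate 2, ZT6 replicate 4 and ZT12 replicate 1, and CON at ZT0 replicate 4, ZT3 replicate 1, ZT9 replicates 1 and 3, ZT12 replicate 1 and ZT18 replicate 3. With the ventricular cardiomyocyte marker score as a covariate the difference was 0.087 and did not pass (edgeR adjusted p = 0.0774). The call was lost as well with no low-count filter (0.15, adjusted p = 0.0805), and without the 3 libraries that stood apart the difference was 0.15 with an edgeR adjusted p of 0.0111.

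Adcy6, the other main cyclase, varied widely between hearts of 1 group and did not pass the test of genotype. It ran from 115 to 307 CPM with a median of 184 in CON and from 53.5 to 263 CPM with a median of 184 in CEK. At ZT15 CON hearts had 228, 200.5, 238 and 215 CPM and CEK hearts 171, 182, 189.8 and 196 CPM, with no overlap. At ZT18 CON hearts had 153, 307, 118 and 189 CPM and CEK hearts 61.4, 231, 164 and 203 CPM, and the libraries that stood apart were the lowest of each genotype at that time. The average log2 difference was -0.13 ± 0.10, with a 95% interval of -0.34 to 0.076 that spans 0 (edgeR adjusted p = 0.487). Without the 3 libraries it was -0.088 (edgeR adjusted p = 0.577). The exons of Adcy6 share 605 bases with the antisense gene Gm29331, which had at most 1 count in any library. The strand setting of counting is not known, so this low count does not show that Adcy6 lost no reads there.

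Neither phosphodiesterase passed the test of genotype. Pde3a, which encodes a phosphodiesterase that cyclic GMP inhibits, ran from 60.8 to 158 CPM with a median of 87.9 in CON and from 54.3 to 129.9 CPM with a median of 84.1 in CEK. Its average log2 difference was -0.09 ± 0.057, with a 95% interval of -0.20 to 0.024 and an edgeR adjusted p of 0.361. The antisense gene Gm28523 shares 741 exon bases with Pde3a and had a median of 42.5 counts per library. Whether reads were counted by strand is not stated in the sources. Pde4d, which encodes a phosphodiesterase specific for cyclic AMP with several long and short isoforms, ran from 15.96 to 32.1 CPM with a median of 20.5 in CON and from 15.1 to 39.9 CPM with a median of 19.6 in CEK. Counts per gene do not separate its isoforms. Its average log2 difference was -0.056 ± 0.057 (95% interval -0.17 to 0.058, edgeR adjusted p = 0.62), and -0.11 without the 3 libraries that stood apart (edgeR adjusted p = 0.0858).

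**Figure D2:**
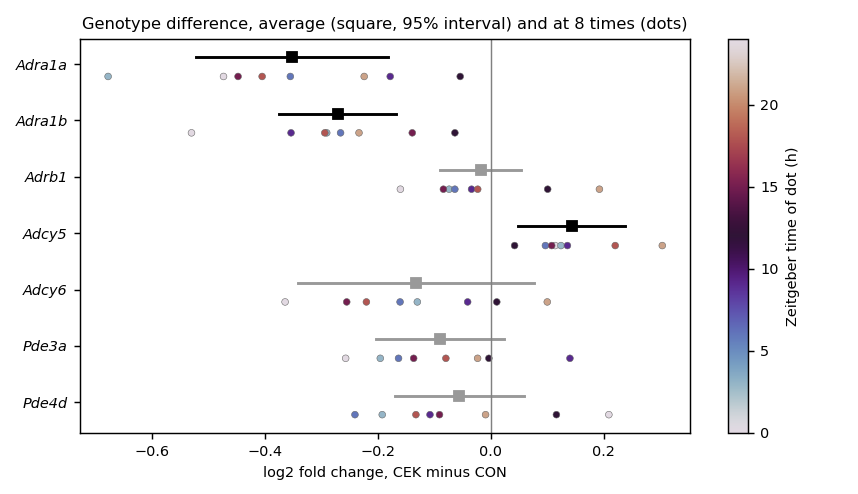
Log2 fold change of CEK against CON (x axis) for the 7 genes (y axis). Squares are averages over 8 times with 95% intervals, black where the edgeR adjusted p was below 0.05, and dots are the single times, coloured by zeitgeber time in hours. Intervals of Adra1a and Adra1b lie below 0, that of Adcy5 lies above 0, and the other 4 cross 0.

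Of the 56 pairs of gene and time, edgeR called 0 at an adjusted p below 0.05, and 4 had an unadjusted p below 0.05. DESeq2 called 1 (Adra1b at ZT0) and voom with quality weights called 3 (Adra1b at ZT0 and ZT9, Adcy5 at ZT21). Hearts of the 2 genotypes did not overlap in 6 of the 56 pairs, 4 with CEK below (Adra1a at ZT15, Adra1b at ZT0 and ZT6, Adcy6 at ZT15) and 2 with CEK above (Adrb1 at ZT21, Adcy5 at ZT15). Over all genes and times, 3.98% of pairs did not overlap, 1.77% below and 2.21% above. The test of whether the genotype difference itself varied with time called 0 of the 7 genes with edgeR and 0 with DESeq2. Neither gave an unadjusted p below 0.05, and edgeR called 0.00609% of all genes, that is 1. Voom with quality weights called 0 of the 7 as well, with 1 unadjusted p below 0.05, and called 47 of all genes.

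Markers of other cell types differed between genotypes and are given here beside the receptor and cyclase results. Of 10 atrial cardiomyocyte markers, 7 were lower in CEK and none was higher, and their mean log2 CPM ran from 4.26 to 8.54 in CON hearts and from 4.06 to 7.75 in CEK hearts. With that score as a covariate in edgeR, Adra1a was at -0.36 (adjusted p = 0.00223), Adra1b at -0.25 (adjusted p = 0.000335) and Adcy5 at 0.15 (adjusted p = 0.0312). Of 12 ventricular cardiomyocyte markers, 3 were lower (Myh6, Actn2 and Atp2a2) and 1 higher (Mybpc3), and their mean log2 CPM ran from 11.9 to 12.5 in CON and from 11.9 to 12.4 in CEK. With that score as a covariate, edgeR put Adra1a at -0.45 (adjusted p = 2.21e-06), Adra1b at -0.28 (adjusted p = 4.92e-05), Adcy6 at -0.30 (adjusted p = 0.00278) and Pde3a at -0.14 (adjusted p = 0.0249). Adcy5 was then at 0.087 (adjusted p = 0.0774), and 5805 of all genes passed in place of 1968. Both scores hold markers that differed between genotypes. Fits with them therefore cannot separate cell content from an effect of genotype on the markers. Macrophage markers were higher in 9 of 10 cases, with a mean log2 CPM of 3.795 to 4.97 in CON and 4.09 to 5.28 in CEK. Of 9 endothelial markers 1 was lower (6.35 to 6.78 in CON, 6.34 to 6.67 in CEK), of 9 fibroblast markers 2 were higher (5.67 to 6.31 and 5.75 to 6.91), and of 8 smooth muscle and pericyte markers 1 was higher (5.13 to 6.35 and 5.23 to 6.16). Of 5 adipocyte markers edgeR called 0, with 1 unadjusted p below 0.05 (-1.78 to 3.50 and -1.56 to 2.21). Of 8 markers of Schwann cells and sympathetic neurons 6 could be tested and 1, Tubb3, was higher (0.50 to 1.41 and 0.58 to 1.70). Th, which makes a precursor of noradrenaline, had no count in 45 libraries. Dbh, which makes noradrenaline, had 7228 counts in all and was detected in every library, with a log2 difference of -0.092 (edgeR adjusted p = 0.701). The part of macrophage, endothelial, fibroblast, smooth muscle, adipocyte and nerve markers in the differences was not tested.

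Both Adra1b and Adrb1, and the phosphodiesterase Pde3a, followed the time of day in CON hearts, with fitted peaks early in the light phase. A cosine and sine of 24 h, tested together with edgeR, called these 3 of the 7 genes in CON, beside 14.6% of all genes. The amplitude is the log2 distance from the mean of the fitted curve to its peak. In CEK the same 3 were called, beside 15.6% of all genes.

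Adra1b had its highest CON mean at ZT0 (53.8 ± 3.26 CPM, SD, n = 4) and its lowest at ZT15 (33.4 ± 3.25 CPM), and these groups did not overlap. As these are the extremes of 8 means, the lack of overlap is partly built in. In CEK the highest mean was at ZT6 (42.3 ± 2.03 CPM) and the lowest at ZT18 (29.6 ± 8.39 CPM). The ZT18 group holds a library that stood apart, and without it the mean was 33.01 ± 5.91 CPM (n = 3), above that at ZT15 (30.3 ± 3.56 CPM). The CON amplitude was 0.34 ± 0.051 (SE), a fitted peak to trough ratio of 1.59, with the peak at ZT2.94 ± 0.581 h (edgeR adjusted p = 6.49e-06). The CEK amplitude was 0.22 ± 0.051, with the peak at ZT3.84 ± 0.869 h (edgeR adjusted p = 0.00386).

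Pde3a had a rhythm of similar size and time. At ZT3 its CON values were 95.96, 158, 85.4 and 102 CPM, and at ZT15 they were 85.6, 60.8, 64.5 and 61.4 CPM. In CEK they were 81.6, 90.3, 129.9 and 83.3 CPM at ZT3 and 63.9, 71.4, 54.3 and 58.1 CPM at ZT15. In CEK no heart at ZT15 reached the lowest at ZT3, and in CON 1 heart at ZT15 lay just above the lowest at ZT3. These times held the highest and the lowest mean of each genotype, so this separation is partly built in. The CON amplitude was 0.31 ± 0.056, with the peak at ZT2.83 ± 0.698 h (edgeR adjusted p = 0.00017). The CEK amplitude was 0.24 ± 0.056, with the peak at ZT3.92 ± 0.906 h (edgeR adjusted p = 0.0067).

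Adrb1 had a shallower rhythm, with 27.2 ± 3.40 CPM at ZT3 and 21.1 ± 1.33 CPM at ZT21 in CON. Its 4 CON values at ZT12 were 19.9, 23.02, 20.7 and 21.1 CPM, all below the 4 values at ZT3, 29.3, 24.4, 24.1 and 30.8 CPM. A high and a low mean are compared here, so that this too is partly built in. The CON amplitude was 0.18 ± 0.035, with the peak at ZT4.33 ± 0.734 h (edgeR adjusted p = 0.000343). In CEK it was 0.13 ± 0.035, with the peak at ZT4.34 ± 1.03 h (edgeR adjusted p = 0.019). That CEK call was lost without CEK at ZT3 replicate 3 (0.12, adjusted p = 0.0528), without CEK at ZT6 replicate 4 (0.12, adjusted p = 0.0522), with no low-count filter (adjusted p = 0.0684) and in the 32 CEK libraries alone (adjusted p = 0.0554).

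**Figure D3:**
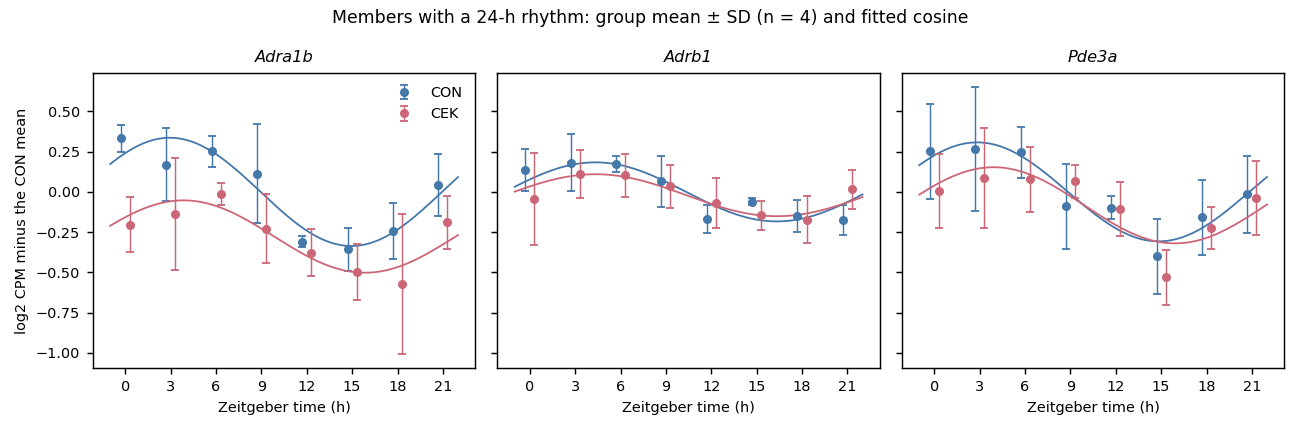
Group means of log2 CPM minus the CON mean (y axis) with SD over 4 hearts, at 8 zeitgeber times in hours (x axis), for the 3 genes with a called rhythm, with fitted 24-h cosine curves. Blue is CON and red is CEK. All 6 curves peak between ZT2.83 and ZT4.34, and the CEK curve of Adra1b lies below its CON curve.

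In the cosine fit with edgeR the other 4 genes had no called rhythm in either genotype. Voom with quality weights called 1 of them in CON, Adcy6 (amplitude 0.22, adjusted p = 0.0361). In CON the fitted amplitude was 0.19 ± 0.10 for Adcy6 (edgeR adjusted p = 0.415), 0.091 ± 0.085 for Adra1a (0.764), 0.084 ± 0.064 for Pde4d (0.653) and 0.052 ± 0.046 for Adcy5 (0.737). Adcy6 had its highest mean at ZT12 in both genotypes, 222 ± 46.9 CPM in CON and 224 ± 37.5 CPM in CEK, and a fitted peak at ZT14.9 ± 2.05 h in CON and ZT14.3 ± 1.77 h in CEK. With the ventricular cardiomyocyte score as a covariate its amplitudes were 0.32 in CON (edgeR adjusted p = 0.00597) and 0.35 in CEK (edgeR adjusted p = 0.00221), and that of Adra1a in CEK was 0.24 (edgeR adjusted p = 0.0437).

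No gene of the 7 had a called difference in rhythm between genotypes with edgeR or with DESeq2, with 0 unadjusted p below 0.05 for either. Of all genes 0.00609% had one with edgeR. Voom with quality weights called 0 of the 7 as well, with 2 unadjusted p below 0.05, and called 2 of all genes. The amplitude of the difference was 0.13 for Adra1b, 0.10 for Pde3a and 0.053 for Adrb1, each with an edgeR adjusted p of 1.00. With time as 8 free levels, edgeR called Adra1b (adjusted p = 0.000548), Adrb1 (0.00652) and Pde3a (0.0111) in CON, beside 7.73% of all genes. In CEK it called only Pde4d (adjusted p = 0.0363), beside 8.39% of all genes. The highest Pde4d hearts at ZT0 and ZT18 in CEK, 39.9 and 34.5 CPM, were libraries that stood apart. Without the 3 libraries the edgeR adjusted p of Pde4d in CEK was 0.219 and that of Pde3a was 0.0439.

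Within groups, hearts that were high for Adra1a tended to be high for Adcy6, Adcy5 and Pde3a. Deviations of log2 CPM from the group mean were compared over all 64 hearts for the 21 pairs of genes, with permutations within groups (two-sided, 1e-05 is the smallest p they can give) and Benjamini-Hochberg adjustment over the 21 pairs. By Pearson's r, 10 pairs passed an adjusted p of 0.05, and 9 of them passed by Spearman's rho too. The strongest was Adra1a with Adcy6 (r = 0.77, rho = 0.77, permutation adjusted p = 7e-05, r = 0.75 without the 2 farthest hearts). Adcy5 with Adcy6 had r = 0.73 and rho = 0.73 (permutation adjusted p = 7e-05, r = 0.67 without the 2 farthest). Adra1a with Pde3a had r = 0.69 and rho = 0.61 (permutation adjusted p = 7e-05, r = 0.61 without the 2 farthest), and Adra1a with Adcy5 had r = 0.58 and rho = 0.58 (permutation adjusted p = 0.00021, r = 0.66 without the 2 farthest). Hearts share depth, RNA quality and scaling across genes, and the part of these in the correlations was not tested. Over all hearts Adra1b passed with none of the other 6 genes. In the 32 CEK hearts alone it passed with Adcy6 (r = 0.58, permutation adjusted p = 0.0404). In the 32 CON hearts r of this pair was -0.17, and the difference between genotypes was not tested. The CEK hearts hold replicate 1 at ZT18, with the lowest Adra1b of all hearts and an Adcy6 of rank 2 from the bottom. Over the 61 hearts without the 3 libraries that stood apart, r of this pair was 0.089 (permutation adjusted p = 0.673).

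Leaving out the 3 libraries that stood apart ended the 3 called pairs of Adrb1 and raised r for Pde4d with Pde3a, Adra1a and Adcy6. Adrb1 passed with Adcy5 (r = 0.44), Adcy6 (r = 0.42) and Adra1a (r = 0.39), and without the 3 libraries r was 0.24, 0.13 and 0.25, with permutation adjusted p of 0.249, 0.491 and 0.228. In the 32 CON hearts Adrb1 had r = -0.050 with Adra1a and -0.039 with Adcy6, against 0.67 and 0.64 in the 32 CEK hearts; this difference was not tested. Pde4d with Pde3a had r = 0.44 over all hearts and 0.78 without the 3 libraries. Pde4d with Adra1a had r = 0.11 and then 0.58, and with Adcy6 -0.22 and then 0.51, the last values with permutation adjusted p of 8.4e-05 and 0.0009. Of the 10 pairs, 6 passed with and without these libraries.

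**Figure D4:**
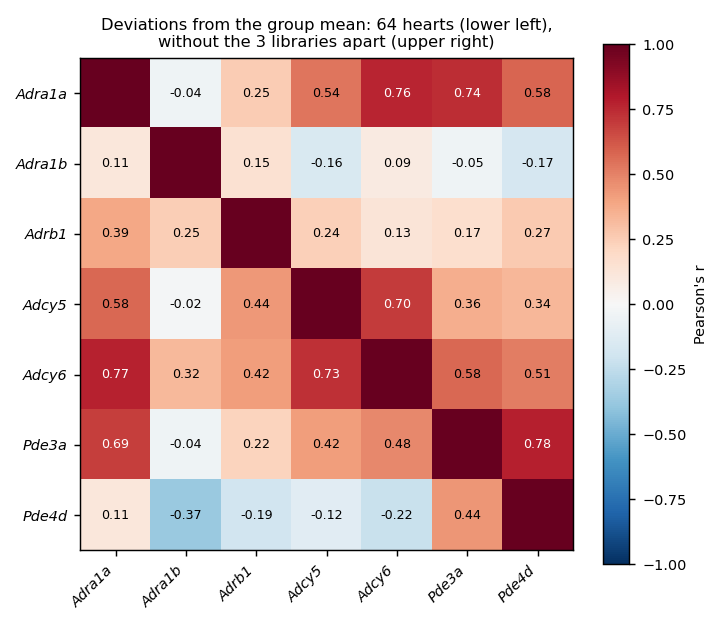
Pearson's r between deviations of log2 CPM from the group mean for each pair of the 7 genes. The lower left shows all 64 hearts and the upper right 61 hearts without the 3 libraries that stood apart, with colour from blue (-1) to red (1). The Pde4d row and column change most between the sides, for example from -0.22 to 0.51 with Adcy6.

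Over the 16 group means of log2 CPM, the genes whose pattern was most like that of each receptor or enzyme were ranked by Pearson's r among 11268 genes. For Adra1b they were Slc22a3 (r = 0.96), Slc22a23 (0.95) and Agpat3 (0.93). For Pde3a they were Inpp4b (0.96), Tet1 (0.94) and Bend3 (0.94), and for Adrb1 Rfwd3 (0.89), Col4a2 (0.88) and Clpx (0.87). For Adcy6 they were Brd1 (0.96), Rev1 (0.93) and Kdm4b (0.93), and for Adra1a Ppp2r3a (0.89), Fyco1 (0.88) and Cdnf (0.87). For Pde4d they were Tnrc6b (0.98), Bptf (0.96) and Bod1l (0.92), and for Adcy5 Atp11a (0.87), Abca2 (0.85) and Pde8a (0.84). These are the highest of many values over only 16 points and are given as a description.

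Around these 7 genes, 94 other genes of the adrenergic and cyclic AMP pathway were listed in 10 groups, and 92 could be tested. Adra2a and Adcy10 had too few counts. In CEK 9 were higher (9.78%) and 12 lower (13.04%), with a median log2 difference of -0.017, against 6.69% higher, 5.30% lower and a median of -0.00072 over all genes. The lists were chosen with earlier results of these data known, so shares within them are given as a description.

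Near the receptors, 1 of 5 other adrenergic receptors passed: Adra2b, an alpha-2 receptor, fell (-0.29 ± 0.088, edgeR adjusted p = 0.0205). Grk5, a kinase that phosphorylates activated receptors, rose by 0.37 ± 0.067 (edgeR adjusted p = 4.04e-05) and Arrb2, beta-arrestin 2, rose by 0.18 ± 0.051 (adjusted p = 0.00982), as 2 of 6 receptor kinases and arrestins. Of 10 G protein subunits 2 rose by small steps, the beta subunit Gnb1 (0.065 ± 0.018) and the inhibitory alpha subunit Gnai2 (0.084 ± 0.029). Of 11 genes downstream of alpha-1 receptors 1 rose and 2 fell: the protein kinase C isoform Prkcd (0.28 ± 0.038, edgeR adjusted p = 1.57e-07) rose, and Prkca (-0.16 ± 0.045) and protein kinase D1, Prkd1 (-0.17 ± 0.043), fell.

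Among the enzymes, 1 of 7 other adenylyl cyclases passed, the calmodulin-stimulated Adcy1, which fell (-0.65 ± 0.17, edgeR adjusted p = 0.00592). Of 16 other phosphodiesterases 2 rose and 4 fell. Pde1c, which calmodulin activates, rose (0.21 ± 0.044, edgeR adjusted p = 0.0003). The cyclic AMP-specific Pde4a (-0.19 ± 0.038, edgeR adjusted p = 0.00021) and Pde4c (-0.21 ± 0.049, adjusted p = 0.00137) fell. Pde4b also fell (-0.14 ± 0.047) and was named after its value was seen. With it 3 of the 4 Pde4 genes passed as lower, beside 5.30% of all genes. The estimate of Pde4d was lower as well (-0.056 ± 0.057) but did not pass. Whether Pde4d differs from the other 3 was not tested.

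Downstream of cyclic AMP, 3 of 9 genes of protein kinase A and its inhibitors passed. The regulatory subunit Prkar1a rose (0.12 ± 0.032). The inhibitor Pkia fell (-0.32 ± 0.05, edgeR adjusted p = 2.58e-06), and the inhibitor Pkib rose (0.43 ± 0.11, adjusted p = 0.00334) from a low level, with 1479 counts in all libraries together against 412110 for Pkia. Of 10 A-kinase anchoring proteins edgeR called 0, with 1 unadjusted p below 0.05, and no other tool was run on the lists. Of 11 other cyclic AMP effectors 2 fell, the exchange factors Rapgef3 (-0.11 ± 0.033) and Rapgef4 (-0.13 ± 0.038). Of 7 protein kinase A substrates and phosphatase regulators 1 fell, the phosphatase 1 inhibitor Ppp1r1b (-0.92 ± 0.30, edgeR adjusted p = 0.0305). Whether the lower atrial markers have a part in the falls of Ppp1r1b and Adcy1 was not tested.

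A 24-h rhythm in CON was called by edgeR for 18 of the 92 genes (19.6%), against 14.6% of all genes, and for 18 in CEK. The anchoring protein Akap1, which holds protein kinase A at mitochondria, had an amplitude of 0.30 with a peak at ZT0.514 (edgeR adjusted p = 7.26e-09), and Akap5 had 0.58 with a peak at ZT5.47. Grk5 (ZT1.60, amplitude 0.30), Prkar1a (ZT2.33, amplitude 0.17) and Pde4a (ZT2.02, amplitude 0.17) also peaked in the light phase. So did Rapgef4 (ZT4.97, amplitude 0.16) and Prkca (ZT5.29, amplitude 0.23). Peaks late in the cycle were those of the cyclic AMP-specific phosphodiesterase Pde7a (ZT17.4, amplitude 0.38, edgeR adjusted p = 1.52e-06), Prkce (ZT19.6, amplitude 0.22), the transcription factor Creb1 (ZT20.4, amplitude 0.23) and Adra1d (ZT21.7, amplitude 0.32). Rrad, a GTPase that restrains the L-type calcium channel, peaked at ZT0.246 with an amplitude of 0.40, and Grk6 peaked at ZT9.10 with an amplitude of 0.11.

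**Figure D5:**
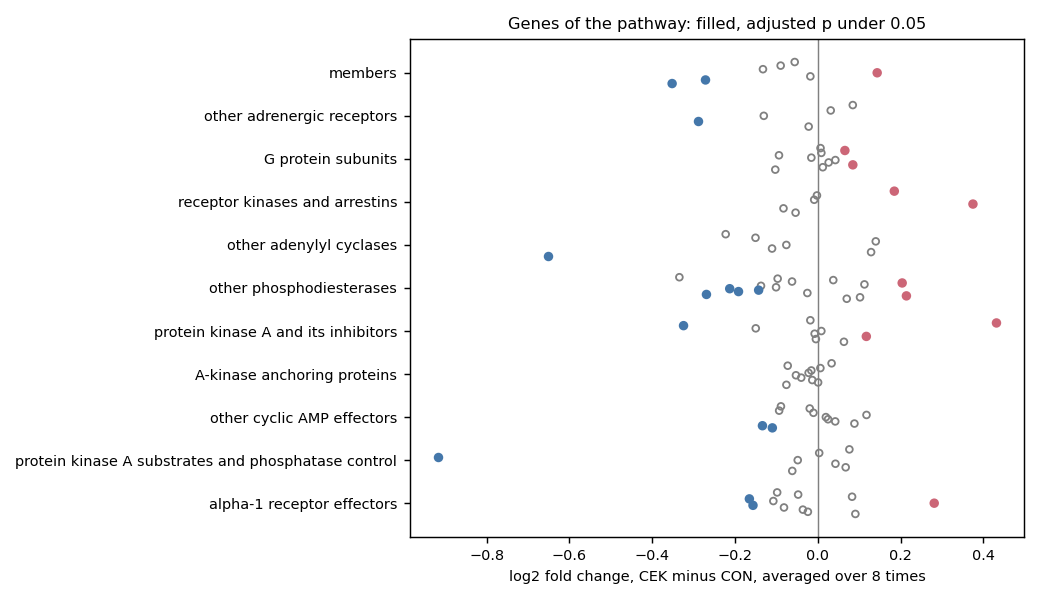
Log2 fold change of CEK against CON averaged over 8 times (x axis) for the 7 genes ("members") and the 92 tested genes of 10 pathway groups (y axis), 1 dot per gene. Filled dots had an edgeR adjusted p below 0.05, blue lower and red higher, and open dots did not. Filled dots lie on both sides of 0, 12 lower and 9 higher among the 92.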

How the data were processed

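The table the authors deposited holds raw counts of reads per Ensembl gene for 64 libraries. Per the submitters' processing notes, the tools were bcl2fastq 2.18.0.12, STAR 2.6.1d and HTSeq 0.11.1, with the genome build GRCm38. Neither the annotation nor the strand setting is stated in the sources. The 5 summary rows were left out of all sums and fits. Among them were reads in no feature (median 3.56%), ambiguous reads (3.20%) and reads with more than 1 location (33.3%). Replicate 1 of CEK at ZT12 had the highest shares of reads in no feature (12.6%) and of ambiguous reads (12.5%). Leaving that library out was among the changes that lost the Adcy5 call. Mitochondrial genes took 10.5% to 30.6% of the counts on genes. Gene names, positions and exon lengths came from GENCODE M21, which matched 48435 of 48795 IDs. Within groups, the squared difference between 2 libraries, averaged over genes, was at least 4.63 times the variance expected from counting alone in all 96 pairs.

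Genes were kept by filterByExpr (minimum count 10, minimum total 15), which left 16417, and scaled by TMM in edgeR 4.0.16 (R 4.3.3, limma 3.58.1). All 7 genes passed this filter. Genotype differences came from a quasi-likelihood fit of 16 group means (48 residual degrees of freedom), and rhythms from a fit with cosine and sine terms for each genotype (58 residual degrees of freedom). Benjamini-Hochberg adjustment ran over all genes tested, with a threshold of 0.05. CPM and RPKM use TMM-scaled libraries, and log2 CPM a prior count of 2. Both fits were tested on simulated data. The pass marks set there covered only changes larger than the average differences and amplitudes of the 7 genes. Recovery of changes as small as theirs is not given here. Alternatives were DESeq2 1.42.0, other scaling and filters, a replicate block, voom, the submitters' number and each library left out. After seeing the data, fits that dropped the 3 libraries standing apart, or that used marker scores or the mitochondrial share as covariates, were added.

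The genes, lists, markers and rules were chosen with earlier results of these data known. Of the pathway lists, the text names up to 3 called genes with the smallest p for the genotype difference and up to 2 for the CON rhythm. Genes most alike are the 3 with the highest r among genes that averaged 1 or more in log2 CPM and had no provisional name. Replicates are biological replicates per the labels.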

Additional observations from a re-analysis of the deposited data

Results flagged for a closer look

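Among 112 groups of 4 hearts (7 genes in 16 groups), 1 held a heart far from the others. Adcy6 in CEK at ZT9 was 132 CPM in replicate 2 and 189 to 195 CPM in the other 3 hearts, so that the gap made 0.925 of the group's whole range, above Dixon's 95% critical value for 4 samples. Chance flags about 1 in 20 groups.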

How the results depend on the processing

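Leaving out each of the 64 libraries in turn gave 2 to 3 of the 7 genes called for the average genotype difference and 2 to 3 for the rhythm in CEK. It gave 3 for the rhythm in CON, 0 for the interaction and the difference in rhythm, and 0 to 2 of 56 pairs of gene and time. The count of 0 such pairs became 1 with DESeq2, RLE scaling, the stricter filter, the submitter number and the atrial score (Adra1b at ZT0), 2 with the cardiomyocyte score (Adra1b at ZT0, Adra1a at ZT3) and 3 with voom. With that score 5 genes had a rhythm in CEK, and with 8 levels of time 1 did. Over all genes, voom moved the rhythm calls from 2393 to 4419 in CON and from 2560 to 3911 in CEK, and 8 levels of time to 1269 and 1378.

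The labels number replicates 1 to 4 in every group and do not say what a number marks. Deviations of same-numbered CON and CEK hearts of 1 time correlated at a median of 0.15 (-0.43 to 0.52, 20 of 32 pairs of hearts over 0.1), against -0.046 for other numbers (23 of 96 pairs over 0.1). Of 64 hearts, 32 correlated best with their own number among the 4 hearts of the other genotype at that time. If the numbers marked nothing, each of these 4 would be equally likely to be the best. This is a hint from the data and not from the design. The numbers were not used as pairs. Not every same-numbered pair was over 0.1, but this cannot show that pairs are absent. Apart from the replicate block, the genotype tests treated all hearts as independent. The replicate block gave each number the same effect at all times and in both genotypes, so it did not model pairs within a time. With that block 1 pair of gene and time was called, Adra1b at ZT0 (edgeR adjusted p = 0.0342), and 3 genes for the average difference and for each rhythm.

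Of 10 correlated pairs, 4 passed in the 32 CON hearts alone, where r turned to -0.050 for Adra1a with Adrb1 and -0.039 for Adrb1 with Adcy6, neither with an adjusted p below 0.05. The cause was not tested. At 19492 counts in all, Adra1a is the least precise of the 7 genes in counting.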
